A study of Mus musculus with 25 samples.

Results

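In sperm RNA from mice, 21 of the 24358 genes measured were low in the FVB/N strain and present in every C57BL/6J condition. Of these genes, 9 encode microRNAs (miRNAs), 10 encode proteins and 2 are long non-coding RNAs. They were selected on the scaled counts of all 5 conditions: each was chosen because its smallest count among the C57BL/6J conditions was at least 10 and because that count plus 1 was at least 8 times the largest FVB/N count plus 1. Genes of the H2 major histocompatibility complex, which differs in sequence between inbred strains, were left out beforehand, and 2 of them met the other conditions. The strain difference itself is therefore what defined the genes, and it is given below as a description without a test.

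RNA was taken from spermatozoa of the cauda epididymis of males aged 14 weeks. Their mothers (or, for F2, their grandmothers) had received corn oil alone (CTL) or 300 mg/kg/day of di(2-ethylhexyl) phthalate, the plasticizer DEHP, in corn oil (D300) from embryonic day 9 to 19. In C57BL/6J, the sons of the dosed mothers made up C57.CTL.F1 and C57.D300.F1, and C57.D300.F2 were sons of DEHP-exposed F1 males and newly ordered females. In FVB/N the F1 design alone was used, as FVB.CTL.F1 and FVB.D300.F1. Counts are given in this order throughout, those of the 3 C57BL/6J conditions and then those of FVB/N. There was no F2 condition from vehicle-treated ancestors. Each condition held 5 libraries, 25 in all, but the table gives 1 pooled count per gene and condition, so no value below has a replicate SD and no difference has a p-value. The 10 libraries of the C57BL/6J F1 conditions were reused from earlier work and the other 15 were newly made, so that C57.D300.F2 was the only C57BL/6J condition prepared with the FVB/N libraries.

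Mature miRNAs are short RNAs, cut from a hairpin, which guide repression of messenger RNAs mainly through the seed, bases 2 to 8 from the 5′ end. Spermatozoa are nearly silent in transcription, and the RNA they carry comes from the germ cells that formed them and from vesicles taken up in the epididymis. A cluster of miRNA genes on the X chromosome and the miR-34b/c pair are known for their high levels in the mouse germ line, miR-142 for blood cells and miR-192 for liver, gut and kidney. RNA of cells other than spermatozoa in a sperm preparation adds to the same counts.

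The mature sequences of the 9 miRNA genes, from RefSeq on GRCm38.p6, are shown because the rule picked a larger share of miRNA genes than of any other class. The seed is in capitals. The counts are per hairpin gene, so they do not say which arm of a hairpin was read. Some mature forms that are not members but share a seed with one are shown beside it, and miR-34c-5p is not shown.
miR-871-5p: uAUUCAGAuuagugccagucaug
miR-743a-5p, not a member: uAUUCAGAuuggugccugucau
miR-871-3p: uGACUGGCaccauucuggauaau
miR-743b-3p: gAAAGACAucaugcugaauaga
miR-743a-3p, not a member: gAAAGACAccaagcugaguaga
miR-743b-5p: uGUUCAGAcugguguccauca
miR-465a-3p: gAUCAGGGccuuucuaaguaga
miR-465a-5p: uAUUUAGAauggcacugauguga
miR-34c-3p: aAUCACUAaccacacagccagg
miR-34b-3p, not a member: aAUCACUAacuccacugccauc
miR-27b-3p: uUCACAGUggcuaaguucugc
miR-27a-3p, not a member: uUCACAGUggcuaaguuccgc
miR-27b-5p: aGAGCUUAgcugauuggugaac
miR-192-5p: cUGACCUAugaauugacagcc
miR-215-5p, not a member: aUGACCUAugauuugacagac
miR-192-3p: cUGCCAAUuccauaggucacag
miR-142a-5p: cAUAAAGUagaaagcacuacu
miR-142a-3p: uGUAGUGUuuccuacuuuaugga
miR-101a-3p: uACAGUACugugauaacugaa
miR-101a-5p: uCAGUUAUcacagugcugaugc
miR-7210-5p: uAACAUUGuagacaggcacaaag
miR-7210-3p: uUAUAUGUaaguaacaauguggcu
No seed was shared between the 9 genes among the forms shown. Further relatives not printed are miR-6948-5p, with the seed of miR-743b-5p, and the miR-465b, miR-465c and miR-465d forms, with seeds of miR-465a. miR-27b-3p and miR-27a-3p differ at 1 position, miR-34c-3p and miR-34b-3p at 5, and miR-192-5p and miR-215-5p at 3. miR-743b-3p and miR-743a-3p also differ at 3 positions, as do miR-871-5p and miR-743a-5p.

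The pooled counts are scaled by Cuffdiff to be comparable between conditions. They summed to between 6921688 and 8602900 per condition, and between 15862 and 16594 genes per condition reached 10 counts. RNA of several cell types differed between conditions. Over 16 genes known for spermatids and spermatozoa, summed counts were 101419, 85889 and 35232 in C57BL/6J and 8642 and 10415 in FVB/N. All 16 reached 10 counts in every condition, so RNA of the labelled cell type was present throughout, and all 16 were lower in both FVB/N conditions than in every C57BL/6J condition. Over 29 liver genes the sums in the same order were 392551, 287321, 8173, 3491 and 2599, with 28 of the 29 lower in both FVB/N conditions. Some marker sums also differed within a strain and library set. Over 12 seminal vesicle genes the sum was 265001 in C57.CTL.F1 and 1160 in the exposed C57BL/6J F1 condition, and over 19 epididymis genes it was 38485 in FVB.CTL.F1 and 97984 in the exposed FVB/N condition. The part of RNA from these cell types in the differences below was not tested, and fewer cells of a type cannot be told apart from less RNA per cell. Reads were mapped to mm10, the C57BL/6J genome, and loss of FVB/N reads to sequence differences cannot be told apart from less RNA.

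The rule picked 21 of the 15823 genes that had at least 10 counts in every C57BL/6J condition, or 0.133% of them. By class it picked 9 of 95 miRNA genes (9.47%), 2 of 780 long non-coding RNA genes (0.256%), 10 of 13969 protein-coding genes (0.0716%) and 0 of 102 small nucleolar RNA genes. Without C57.D300.F2, the rule picked 449 genes, and within the newly made libraries alone it picked 44. Leaving out conditions can only loosen the rule, so all 21 were bound to be among the 449 and among the 44. All 21 were found in GENCODE M21, on 14 chromosomes. The difference between the smallest C57BL/6J and the largest FVB/N value, on the scale of log2(count + 1), ran from 3.01 in G6pd2 to 5.38 in Mir871. In 10 genes both FVB/N counts were at or under 3, while 7 had at least 10 counts in an FVB/N condition. Cuffdiff also gives a modelled variance per value, and for Mir101a the gap between the closest C57BL/6J and FVB/N values, 14.5 counts, was under the SD of 16.2 from that model.

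**Figure D1:**
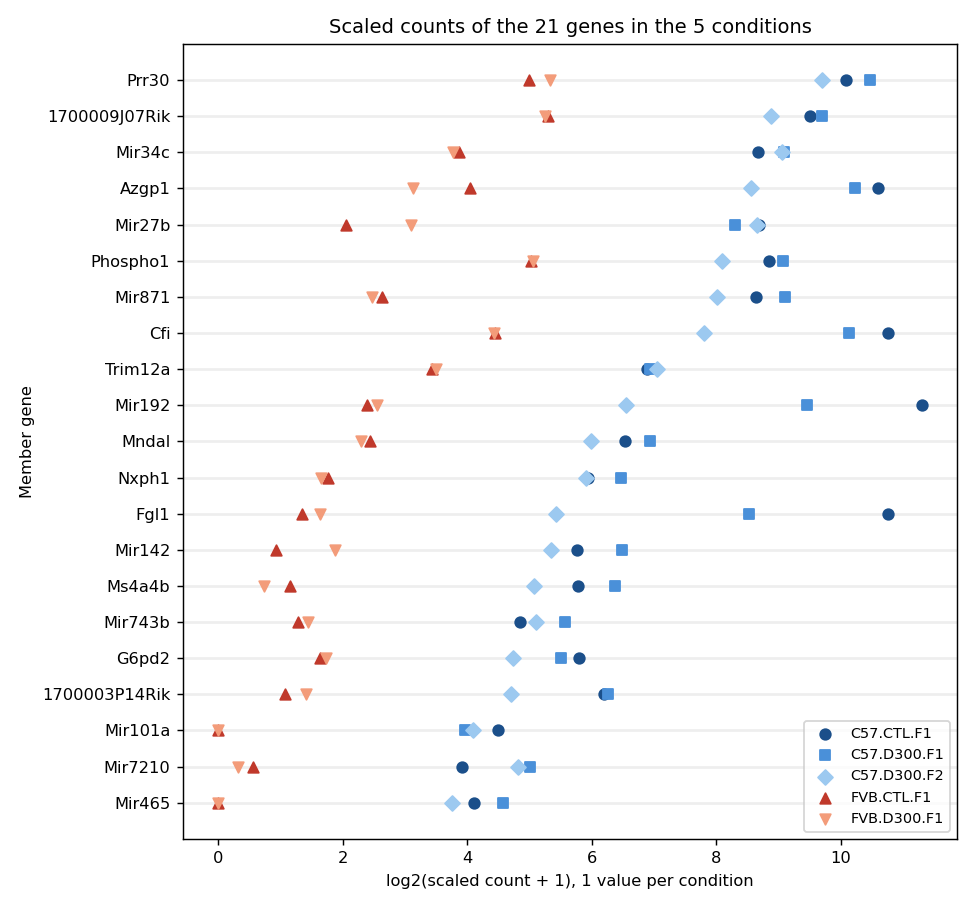
The horizontal axis is log2(scaled count + 1) and each row is 1 of the 21 genes, ordered by the smallest C57BL/6J count. Blue symbols are the 3 C57BL/6J conditions and red symbols the 2 FVB/N conditions, with 1 pooled value of 5 libraries each. The C57BL/6J values lie close together in most rows and far apart for Mir192, Fgl1, Cfi and Azgp1.

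The 3 X-linked miRNA genes, Mir743b, Mir871 and Mir465, span 61.9 kb of 1 strand and were the only members whose starts lay within 1 Mb of another member. Mir871 (chrX:66810428-66810504) had the largest difference of all 21, with scaled counts of 397, 548 and 256 in C57BL/6J and 5.18 and 4.52 in FVB/N. Mir743b (chrX:66777256-66777332) had 27.7, 46.3 and 33.2 counts in C57BL/6J and 1.43 and 1.71 in FVB/N. Both FVB/N values of either gene lay far under all the C57BL/6J ones. Mir465 (chrX:66839052-66839125) had 16.3, 22.9 and 12.5 counts in C57BL/6J and was listed at 0 in both FVB/N conditions. Its 3p form, miR-465a-3p above, is identical to the 3p forms of Mir465b-1 and Mir465c-1 beside it, so reads of that arm could belong to any of them. The C57BL/6J counts were given to Mir465 alone, and the Mir465b and Mir465c genes were listed at 0 in every condition.

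The cluster holds 19 annotated miRNA genes over 62.4 kb, of which 11 had more than 3 counts in at least 1 condition. In all 11, of which 8 were not members, both FVB/N counts were under every C57BL/6J count. In 6 of these 8 the filter was passed through C57BL/6J alone, with FVB/N counts of 0 to 1.21, so a low FVB/N value was largely built into it, and Mir470 and Mir881 were the non-members with over 3 counts in FVB/N. Under the same filter, both FVB/N counts were lower in 37.3% of the 271 other miRNA genes. These 11 genes lie side by side, and they were looked at because members lie among them. Summed over the cluster the counts were 659, 922 and 476 in C57BL/6J and 37.1 and 27.9 in FVB/N. Mir470, the most abundant of the cluster in FVB/N, had 64.8, 67.3 and 109 counts in C57BL/6J and 21.7 and 15.3 in FVB/N. Mir881 had 24.96, 27.5 and 25.8 against 5.46 and 3.56. Mir741 differed from the rest, since its count was also low in the newly made C57BL/6J libraries, with 108 and 169 in the F1 conditions, 6.52 in C57.D300.F2 and 0 and 0.766 in FVB/N. Mir743, whose mature forms share seeds with miR-743b-3p and miR-871-5p, had 4.15, 9.46 and 6.69 counts in C57BL/6J and 0.559 and 1.05 in FVB/N.

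**Figure D2:**
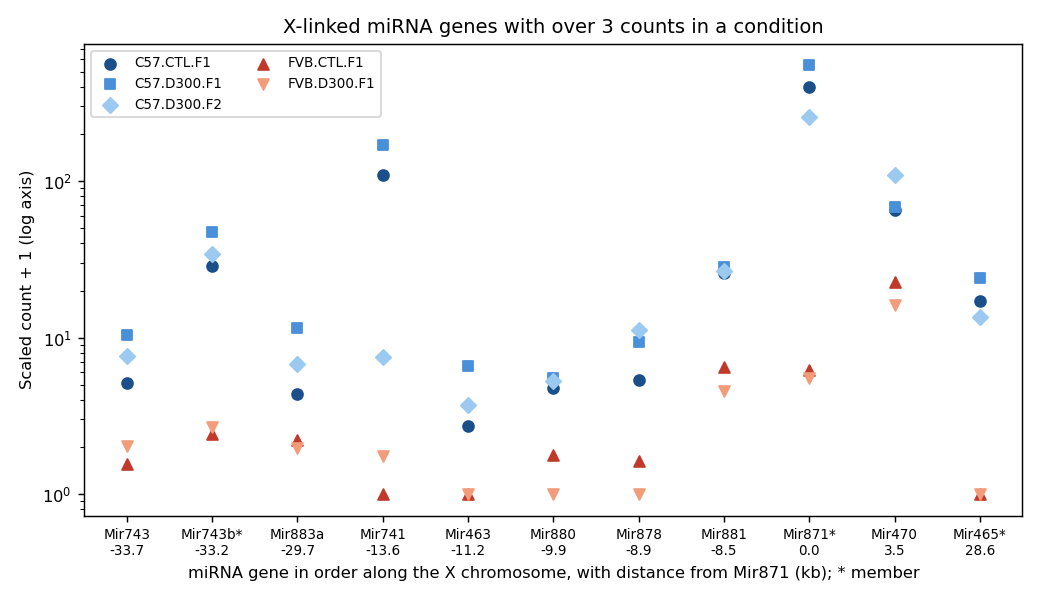
The 11 miRNA genes of the X-linked cluster with over 3 counts in a condition are placed in order along the chromosome, with the distance from Mir871 in kb under each name and members starred. The vertical axis is scaled count + 1 on a log axis with 1 symbol per condition, and in every gene both red FVB/N symbols lie under the 3 blue C57BL/6J symbols.

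Among the autosomal miRNA genes, Mir34c and Mir27b had the highest smallest counts. Mir34c (chr9:51103034-51103110) had 408, 543 and 534 counts in C57BL/6J and 13.7 and 12.7 in FVB/N. Its partner Mir34b, 528 bases away on the same strand and with the same 3p seed, had 17.2, 26.7 and 39.2 counts in C57BL/6J and 2.36 and 1.41 in FVB/N. In this pair both genes were lower in FVB/N and neither was lowest in C57.D300.F2.

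Mir27b (chr13:63300712-63300784) had 410, 313 and 400.5 counts in C57BL/6J and 3.14 and 7.56 in FVB/N. The gene lies in an exon of 2010111I01Rik, a host transcript on the same strand with 542, 465 and 493 counts in C57BL/6J and 580 and 712 in FVB/N. The host was thus not lower in FVB/N. Mir27a, whose mature 3p form has the seed of miR-27b-3p, lies on another chromosome and had 18.2, 16.4 and 20.5 counts in C57BL/6J and 2.59 and 0.764 in FVB/N. Mir23b, 228 bases from Mir27b on the same strand, had 1.39, 0.495 and 0.912 counts in C57BL/6J and 5.87 and 10.6 in FVB/N. The neighbours within 1 hairpin cluster therefore lay in opposite order, although Mir23b was at or near the floor of 3 counts in most conditions.

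Mir192 (chr19:6264844-6264932) had 2535, 698 and 93.0 counts in C57BL/6J and 4.23 and 4.83 in FVB/N. Its modelled SD in C57.CTL.F1 was 2368 counts, nearly as large as the count itself. It is described with the liver proteins below. Mir215, which shares the 5p seed of miR-192, had 4.20, 7.01 and 4.40 counts in C57BL/6J and 0.587 and 4.38 in FVB/N, so that 1 of the FVB/N values lay within the C57BL/6J range. Mir142 (chr11:87756864-87756927), a miRNA gene of blood cells, had 53.2, 88.1 and 39.5 counts in C57BL/6J and 0.903 and 2.66 in FVB/N.

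The remaining miRNA genes had the lowest counts. Mir101a (chr4:101346945-101347027) had 21.6, 14.5 and 15.97 counts in C57BL/6J and was listed at 0 in both FVB/N conditions. The long non-coding RNA that holds Mir101a in an exon, E130102H24Rik, had 118, 105 and 170 counts in C57BL/6J and 175 and 212 in FVB/N, the reverse order. Mir7210 (chr14:24088877-24088930) had 14.0, 31.2 and 27.1 counts in C57BL/6J and 0.476 and 0.241 in FVB/N. At these depths an FVB/N value of 0 allows up to 3 counts.

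miRNA genes as a class were lower in FVB/N. Over the 95 with at least 10 counts in every C57BL/6J condition, the median difference on the log2(count + 1) scale between FVB.CTL.F1 and C57.CTL.F1 was -1.27, beside -0.06 over protein-coding genes, 0.24 over long non-coding RNA genes and 0.43 over small nucleolar RNA genes. Against C57.D300.F2, made in the same library set, the miRNA median was -1.80. FVB.CTL.F1 was lower than C57.CTL.F1 in 73 of the 95 genes. The class was assigned by gene symbol, so these 95 include a few long host transcripts of miRNAs, such as Mir17hg and Mir22hg. The minimum of 10 counts was set on C57BL/6J alone, in every class, and so favours genes that are lower in FVB/N. Both FVB/N counts were under every C57BL/6J count in 63.2% of these miRNA genes and in 33.5% of all genes with such counts. The share of all counts taken by miRNA genes was 1.495%, 1.62% and 2.73% in C57BL/6J and 0.887% and 1.35% in FVB/N. These shares follow a few abundant genes that lay in opposite orders, so they do not describe the class. Mir6240 had 10289, 17938 and 16262 counts in C57BL/6J and 18306 and 31540 in FVB/N. For Mir6236 the counts were 3383, 6937 and 8194 against 16221 and 34245. Mir10b was lower in FVB/N, with 48455, 40273 and 88039 against 5222 and 8195. Measured from the median of the 95, which was 0.72 log2 units between the smallest C57BL/6J and the largest FVB/N value, 6 of the 9 members still differed by at least 3 log2 units, as a description of values the rule had used. When the counts of each condition were instead scaled on these 95 genes, 3 members met the rule, Mir27b, Mir34c and Mir871. Measured from the median, Mir871 led with 4.66, followed by Mir27b with 4.48 and Mir34c with 4.08.

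**Figure D3:**
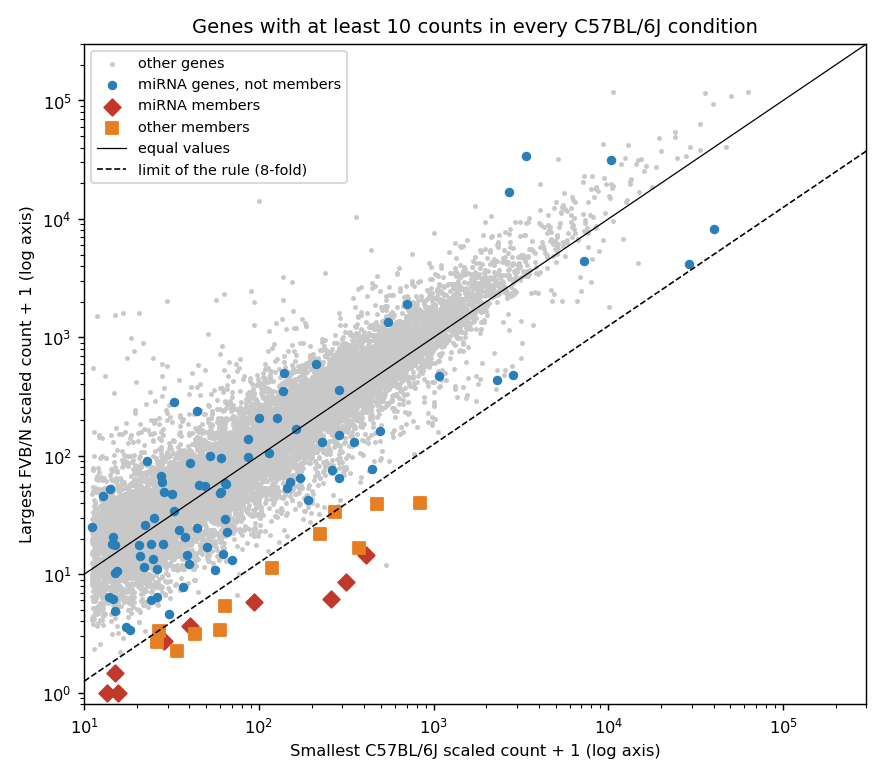
Each point is a gene with at least 10 counts in every C57BL/6J condition, with its smallest C57BL/6J count + 1 on the horizontal and its largest FVB/N count + 1 on the vertical log axis. The dashed line is the 8-fold limit that defined the 21 genes (diamonds and squares), and the grey points under it are H2 genes left out. The 86 other miRNA genes, in blue, lie on both sides of the line of equal values.

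A further 6 members, 4 protein-coding genes and both long non-coding RNAs, are set beside the sperm markers. Prr30, a proline-rich protein gene (chr14:101197690-101200330), had the highest smallest count of all 21, with 1083, 1414 and 832 counts in C57BL/6J and 30.8 and 39.1 in FVB/N. The long non-coding RNA 1700009J07Rik, named after a RIKEN clone (chr10:77893417-77896114), followed with 729, 829 and 472 counts in C57BL/6J and 38.5 and 36.8 in FVB/N. Both were still well above 10 counts in FVB/N, and in both C57.D300.F2 was the lowest of the C57BL/6J conditions. The second long non-coding RNA, 1700003P14Rik (chr13:118555360-118588704), had 72.1, 75.6 and 25.1 counts against 1.10 and 1.65.

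G6pd2 (chr5:61808816-61811163) is an intronless autosomal copy of G6pdx, the X-linked gene of glucose-6-phosphate dehydrogenase, the entry enzyme of the pentose phosphate pathway. It had 54.6, 44.5 and 25.6 counts in C57BL/6J and 2.12 and 2.31 in FVB/N. The longest G6pd2 transcript aligned to G6pdx over 99.3% of its bases with 93.1% identity, so short reads can be shared between them and the G6pd2 values are uncertain. G6pdx itself had 564, 580 and 801 counts in C57BL/6J and 1066 and 944 in FVB/N, and thus lay in the opposite order.

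Phospho1 (chr11:95824499-95832140) encodes a phosphatase best known from bone mineralization. It had 461, 536 and 273 counts in C57BL/6J and 31.7 and 32.3 in FVB/N. Its exons overlap those of Abi3 on the other strand, which had 1081, 1117 and 555 counts in C57BL/6J and 72.9 and 89.1 in FVB/N. The overlapping pair thus had the same order of conditions. A transcript of Zfp652 on the same strand shares 1591 identical bases with Phospho1, 83.3% of the Phospho1 transcript, and Zfp652 had 343, 336 and 348 counts in C57BL/6J and 408 and 380 in FVB/N. Nxph1 (chr6:8948431-9249032), which encodes the secreted neurexin ligand neurexophilin, had 60.3, 87.7 and 59.2 counts in C57BL/6J and 2.39 and 2.13 in FVB/N.

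The sperm marker genes named above moved in the same direction as these genes. Their median difference between FVB.CTL.F1 and C57.CTL.F1 was -3.38 log2 units, and between FVB.CTL.F1 and C57.D300.F2 it was -2.31. The same differences were -5.09 and -4.71 for Prr30, -4.21 and -3.58 for 1700009J07Rik, -5.12 and -3.64 for 1700003P14Rik, -4.16 and -3.09 for G6pd2 and -3.82 and -3.07 for Phospho1. For Nxph1 they were -4.175 and -4.15, so unlike the markers it was nearly as far from C57.D300.F2 as from C57.CTL.F1. The rule fixed a difference of at least 3 log2 units for these genes, so they cannot be ranked against the markers, and a marker such as Spata18, with 1665, 1499 and 767 counts in C57BL/6J and 65.8 and 102 in FVB/N, lay just outside the rule. When all counts were scaled so that the 16 sperm markers were level, a scaling chosen after the data were seen, all 21 genes remained lower in FVB/N but by 0.27 to 2.89 log2 units, and 0 genes met the rule.

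Another group of members is known from immune cells. Mndal (chr1:173849126-173942491), of the interferon-inducible p200 family, had 91.3, 121 and 62.6 counts in C57BL/6J and 4.41 and 3.93 in FVB/N. It has near copies beside it, with transcript identities over the aligned parts of 95.4% to Ifi211, 95.7% to Ifi204 and 93.6% to Ifi205, so its reads may be divided among them. Ifi204 had 67.7, 86.6 and 67.0 counts in C57BL/6J and 17.9 and 22.2 in FVB/N. Ifi205 lay in the opposite order, with 28.8, 49.7 and 55.4 counts against 72.6 and 78.0, and Ifi203, whose exons overlap those of Mndal, had 208, 302 and 316 against 315 and 318. Lower counts in FVB/N were thus a feature of Mndal and Ifi204 but not of these other members of the gene family.

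Trim12a (chr7:104299894-104315466) belongs to the TRIM family of ubiquitin ligases, several of which act against viruses. Its C57BL/6J counts were the most even of all 21 genes, at 117, 121 and 131, against 9.77 and 10.3 in FVB/N. Gm15133, annotated antisense to it, had 15.8, 15.1 and 15.3 counts in C57BL/6J and 2.81 and 4.44 in FVB/N. Both genes were lower in both FVB/N conditions than in every C57BL/6J condition. The family member Trim12c, on the same strand and 23288 bases away, lay in the opposite order, with 221, 208 and 254 counts in C57BL/6J and 480 and 554 in FVB/N.

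Ms4a4b (chr19:11443553-11467055), a membrane protein gene known from T cells, had 53.8, 82.2 and 32.8 counts in C57BL/6J and 1.23 and 0.657 in FVB/N. Its relative Ms4a4c, with 82.8% transcript identity over the aligned bases, had 51.6, 81.7 and 48.8 counts in C57BL/6J and 13.5 and 21.05 in FVB/N. Over 14 genes of blood and leukocytes the median difference between FVB.CTL.F1 and C57.CTL.F1 was -0.83 log2 units, and 6 of the 14 were lower in both FVB/N conditions than in every C57BL/6J condition. The same held for 33.5% of all genes with at least 10 counts in every C57BL/6J condition, a minimum that not all 14 reached. These 6 were the leukocyte genes Ptprc, Cd74, Lyz2, Jchain, Cd79a and Cd3e. Leukocyte genes of the list outside the 6 were S100a8, S100a9, Gbp2b and Klra8, the last under 3 counts throughout. S100a8 had 68.8, 62.9 and 263 counts in C57BL/6J and 135 and 59.2 in FVB/N. The list also holds red-cell genes such as Hbb-bs and Alas2. Ptprc, the CD45 gene common to leukocytes, had 306, 490 and 249 counts in C57BL/6J and 116 and 132 in FVB/N. The T-cell gene Cd3e had 14.2, 32.8 and 24.7 counts against 11.6 and 12.6, so a T-cell marker was present in FVB/N. The part of leukocyte RNA in these members was not tested.

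The members left are secreted proteins, mostly made in the liver. Azgp1 (chr5:137981520-137990233), which encodes zinc-alpha-2-glycoprotein, had 1547, 1197 and 375 counts in C57BL/6J and 15.5 and 7.76 in FVB/N. Among the marker lists it was 1 of the 8 genes of prostate and coagulating gland, and not among the liver genes. Those 8 summed to 8792, 8494 and 7113 counts in C57BL/6J and 6716 and 7762 in FVB/N. Most of each sum was Spink5, with 7186, 7237 and 6450 counts in C57BL/6J and 6640 and 7641 in FVB/N. The median difference of the 8 between FVB.CTL.F1 and C57.CTL.F1 was -0.14 log2 units. Sbp and Msmb were under 3 counts throughout, and Tgm4 had 30.1, 38.7 and 200 counts against 33.9 and 75.1. The sums and the median therefore do not show whether prostate RNA was level between the strains. Cfi (chr3:129835884-129875332), the gene of complement factor I, had 1728, 1122 and 222 counts in C57BL/6J and 20.7 and 20.6 in FVB/N. Fgl1 (chr8:41191434-41215156), a fibrinogen-like protein secreted by hepatocytes, had 1730, 369 and 41.9 counts in C57BL/6J and 1.55 and 2.11 in FVB/N. In each, as in Mir192, the counts were highest in C57.CTL.F1, lower in C57.D300.F1, lower again in C57.D300.F2 and lowest in FVB/N.

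Within C57BL/6J, the effect of prenatal DEHP could be described in values that the strain rule did not set against each other. The rule did set a limit on the smallest C57BL/6J count, so genes lowered strongly in C57.D300.F1 or C57.D300.F2 were partly kept out. Counts and medians over the 21 genes in this and the F2 contrasts are therefore not free of the selection. Only Fgl1 was past 2 log2 units, the size used here for a difference, when C57.D300.F1 was set against C57.CTL.F1: its difference was -2.23, lower in the exposed condition. Among all genes with 10 counts in either condition, 0.256% were lower and 0.0357% higher by this much. The median over the 21 genes was 0.22 log2 units and that over all genes -0.01, with 14 of the 21 higher in C57.D300.F1. The highest differences were 1.10 in Mir7210 and 0.72 in both Mir743b and Mir142, and after Fgl1 the lowest were -1.86 in Mir192 and -0.62 in Cfi. For the same contrast the median was -0.52 over the 29 liver genes, -10.4 over the 12 seminal vesicle genes and -0.12 over the 16 sperm genes, and their part in these differences was not tested.

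In C57.D300.F2, 4 of the 21 genes were lower than in C57.CTL.F1 by at least 2 log2 units and 0 were higher, beside 3.61% and 0.585% of all genes. These 4 were Fgl1 at -5.33, Mir192 at -4.75, Cfi at -2.95 and Azgp1 at -2.04. The median was -0.54 over the 21 genes and -0.04 over all genes. The other 17 genes lay between -1.48, in 1700003P14Rik, and 0.90, in Mir7210, with Mir34c at 0.39 and Mir743b at 0.26. Over the 29 liver genes the median for the same contrast was -5.58 log2 units, and over the 16 sperm genes -1.04. The F2 and control conditions belong to different library sets and there was no F2 control, so generation, exposure and library set cannot be told apart here.

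Compared with C57.D300.F1, C57.D300.F2 had 3 of the 21 genes lower by at least 2 log2 units, beside 3.28% of all genes, and 0 higher, beside 0.333%. Fgl1 stood at -3.11, Mir192 at -2.90 and Cfi at -2.33, while the highest were 0.35 in Mir27b, 0.13 in Mir101a and 0.11 in Trim12a. C57.D300.F2 was the lowest C57BL/6J condition in 15 of the 21 genes, against 45.3% of all genes with at least 10 counts in each of them. The contrasts with C57.CTL.F1 and with C57.D300.F1 share conditions and are not independent of each other.

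**Figure D4:**
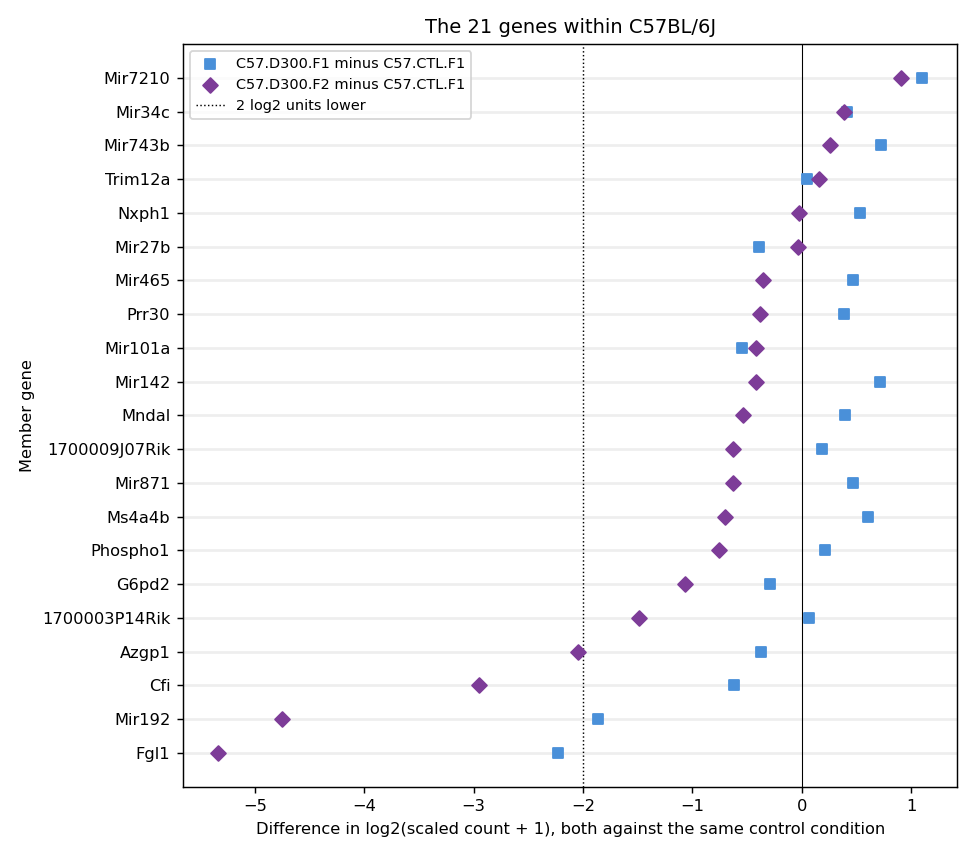
Rows are the 21 genes and the horizontal axis is the difference in log2(scaled count + 1) from C57.CTL.F1, which both contrasts share. Squares are C57.D300.F1 and diamonds C57.D300.F2, with 1 pooled value per condition, and the dotted line marks 2 log2 units lower. Fgl1 lies past it in both contrasts, and Mir192, Cfi and Azgp1 in C57.D300.F2 alone.

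In FVB/N, only 7 of the 21 genes had 10 counts in a condition, and 0 of them differed by 2 log2 units with DEHP, that is in FVB.D300.F1 relative to FVB.CTL.F1, beside 0.662% of all genes higher and 0.0182% lower. The rule limits the larger FVB/N count, so genes raised strongly by DEHP in FVB/N were partly kept out beforehand. The median over the 7 genes was -0.01. The lowest were Azgp1 at -0.92, Mir34c at -0.10 and 1700009J07Rik at -0.06, and the highest were Prr30 at 0.34, Trim12a at 0.07 and Phospho1 at 0.03. For the other 14 genes the FVB/N counts were too low to describe an effect of DEHP.

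For the strain contrasts that the rule used, all 21 genes were lower in FVB/N by over 2 log2 units. Their median was -4.62 between FVB.CTL.F1 and C57.CTL.F1, where 8.89% of all genes were lower and 1.44% higher by that much, and -4.83 between FVB.D300.F1 and C57.D300.F1, where 7.65% were lower and 2.65% higher. Within the newly made libraries the medians against C57.D300.F2 were -4.07 for FVB.CTL.F1 and -3.79 for FVB.D300.F1, with 2.49% and 2.02% of all genes lower and 0.708% and 1.58% higher.

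The genes next to the members are described by their values only. Members were skipped as neighbours, so apart from H2 genes no neighbour could meet the rule. Taking the nearest non-member on each side with at least 10 counts in every C57BL/6J condition gave 40 distinct neighbours. Their median difference between FVB.CTL.F1 and C57.CTL.F1 was -0.23 log2 units, against -0.05 over all genes. Between the smallest C57BL/6J and the largest FVB/N value, 7 of the 40 differed by at least 1 log2 unit, beside 6.4% of all genes, and 3 by at least 2 log2 units, beside 1.02%. With a minimum of 30 counts for a neighbour these became 5 and 1 of 39. The 7 were all related to a member by more than position alone. Mir34b, Mir881 and Mir470 are hairpins of the members' own clusters, Abi3 and Gm15133 overlap a member, and Ifi204 and Ms4a4c resemble one in sequence. The lowest neighbour was Abi3, at -3.87, which overlaps Phospho1.

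At the limits of the rule, the members just inside were G6pd2, Phospho1 and 1700003P14Rik, at 3.01, 3.04 and 3.30 log2 units. Just outside were Ppp1r3g at 2.94, Sntg1 at 2.93 and Spata18 at 2.90. At the count limit Mir465, Mir7210 and Mir101a had the lowest smallest counts inside, and Mir15b, with 8.94, 14.7 and 12.8 counts in C57BL/6J and 0 in both FVB/N conditions, was the only gene kept out by it alone.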

How the data were processed

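Sperm RNA was depleted of ribosomal RNA, fragmented, treated with pyrophosphatase and kinase and made into libraries with a small RNA kit. Reads were called with CASAVA 1.8.2, clipped of the 3′ adapter, kept from 18 bases and mapped by the authors with TopHat, strand setting included, to mm10. Cuffdiff then gave the deposited signal values, which are counts per gene pooled over the 5 libraries of a condition and scaled between conditions, with a modelled variance and a status. The annotation release and Cuffdiff options are not given in the sources used here. Per-library counts were not used here, so no replicate SD or interval can be given, and the precision of a condition cannot be checked beyond the modelled variance.

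Genes with a failed status in any condition were dropped, which left 24287. Differences are log2(count + 1), and those within a strain were read for genes with 10 counts in either condition, with 2 log2 units as the size of a difference. A value of 0 was given no fold, and 3 counts was taken as its floor. Gene positions came from GENCODE M21 on GRCm38 and mature miRNAs from RefSeq. The classes of miRNA and small nucleolar RNA genes were taken from the gene symbol, and the other classes from RefSeq. The miRNA class therefore includes the host transcripts Mir17hg, Mir22hg, Mir99ahg and Mir143hg. Copies were sought among transcripts with blastn 2.17.0, since protein sequences were not used here. Calculations were made in Python 3.11.15 with pandas 2.3.3. The selection was run on simulated data whose planted differences lay well beyond the fold and count limits, so that run does not speak for genes near them. Alternatives changed the fold limit, the count minimum, the pseudocount, the scaling and the conditions used.

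Genes named with values were those with the 15 highest smallest C57BL/6J counts, the 10 largest ratios, all clustered genes, those at the limits, the 3 highest and lowest in each within-strain contrast, marker genes and near copies. Their neighbours, overlapping genes, hosts and seed relatives were named after their values were seen. The members and the gene lists were chosen with earlier results of these data known.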

Additional observations from a re-analysis of the deposited data

How the results depend on the processing

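The number of genes depended on the limits. It was 158 with a 4-fold limit, 7 with 16-fold, 9 with a minimum of 100 counts and 6 with a pseudocount of 10. Without C57.D300.F2, and so across library sets alone, 449 genes met the rule, against 34 without FVB.CTL.F1 and 38 without FVB.D300.F1. With the newly made libraries alone, chosen after seeing the data, there were 44, of which 19 were miRNA genes. These 44 had to include all 21, since leaving out conditions can only loosen the rule. Scaling on the sperm markers left 0 genes and scaling on the 95 miRNA genes left 3 (Mir27b, Mir34c and Mir871), both also chosen after seeing the data. Equal totals gave 24 genes and median-of-ratios factors 20, without G6pd2. The strain medians moved with the treatment of low values. Between FVB.CTL.F1 and C57.CTL.F1 the median was -5.34 with a pseudocount of 0.1, -2.89 with 10 and -4.09 with values under 3 set to 3. Between FVB.D300.F1 and C57.D300.F1 it was -5.41 and -3.23 with pseudocounts of 0.1 and 10. Against C57.D300.F2, FVB.CTL.F1 stood at -4.58 and -2.48 with these pseudocounts and at -3.42 with values under 3 set to 3, and FVB.D300.F1 at -2.51 with 10. The other 52 values under alternatives stayed within 0.5 log2 units or, for counts of genes, 1.5 times, and 0 reversed. A reversal was counted only for medians of at least 2 log2 units. Only the strain contrasts reached this size, and the rule had fixed their sign, so the 0 says nothing about stability. With 1 log2 unit as the size of a difference, exposed C57BL/6J F1 had 2 genes lower and 1 higher than its control. At this size F2 had 6 genes lower than the C57BL/6J control and 8 lower than exposed F1. The share of all genes at 1 log2 unit was not computed, so these counts have no background to be read against. The pooled counts limit what can be checked: single libraries could not be left out. No paired analysis was possible because the table holds 1 value per condition.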

Other observations

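A list of 12 genes known to carry variants that differ among inbred strains held 0 of the 21 genes, and 9 of the 12 had at least 10 counts in every C57BL/6J condition. Apobec3, an antiviral cytidine deaminase, had 752, 670 and 870 counts in C57BL/6J and 158 and 145 in FVB/N, a difference of 2.08 log2 units between the closest values. Hc, the gene of complement component C5, had 4298, 3295 and 92.5 counts in C57BL/6J and 23.6 and 17.96 in FVB/N, an order like that of Cfi. Tyr, mutated in albino strains such as FVB/N, lay the other way, with 69.2, 63.3 and 42.7 counts against 121 and 120.1.

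The H2 genes left out were H2-Eb1, a class II gene with 533, 1020 and 854 counts in C57BL/6J and 11.0 and 6.46 in FVB/N, and H2-T22, with 85.5, 99.2 and 74.1 against 5.65 and 2.65. The closest values of the strains differed by 5.48 and 3.50 log2 units. Among the abundant miRNA genes just outside the rule, Mir10a had 31190, 28919 and 35896 counts in C57BL/6J and 2909 and 4199 in FVB/N.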
